A study of Mus musculus with 6 samples.

Results

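Genes that charge tRNAs with amino acids and genes that make or import those amino acids were followed in wild-type (wt) mouse embryonic pancreas between 13.5 and 15.5 days post coitum (dpc). They are 46 of the 37224 genes counted. The list holds 20 genes for cytosolic aminoacyl-tRNA synthetases and 11 for enzymes of amino acid synthesis and one-carbon metabolism. It also holds 12 genes for amino acid transporters and 3 genes that respond to amino acid shortage. It was drawn up by gene function, and the older gene symbols of the annotation are used throughout (*Aars* for *Aars1*, for example). All 46 symbols matched an entry of the count table.

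RNA of whole pancreata of C57/Bl6J wt embryos was sequenced, with 3 samples at 13.5 dpc and 3 at 15.5 dpc, each a pool of up to 3 embryos and neither stage carrying any treatment or allele. Further stages and genotypes of the study were not used here. Between 12895732 and 16389237 reads were counted on genes per 13.5 dpc sample and between 10546028 and 12491550 per 15.5 dpc sample. No gene of the lists of acinar, endocrine, duct, epithelial and mesenchymal markers was at 0 counts in any sample. In such whole-tissue RNA, a change in the number of cells of a type and a change in RNA per cell cannot be told apart.

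Aminoacyl-tRNA synthetases attach each amino acid to its own tRNAs and so supply the ribosome. The amino acids come from the blood through transporters of the plasma membrane or are made in the cell, as with serine, glycine, asparagine and proline. A shortage of amino acids leaves tRNAs uncharged, which activates the kinase Gcn2 (encoded by *Eif2ak4*). Gcn2 phosphorylates eIF2α, and this raises translation of the transcription factor Atf4, whose known targets include many genes of all 4 groups. Exocrine acinar cells, which differentiate during the secondary transition of the pancreas, are known for a very high rate of secretory protein synthesis.

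At 15.5 dpc, 28 of the 45 members that passed the filter on low counts were higher than at 13.5 dpc, 1 was lower and 16 did not pass the test. The test was edgeR's quasi-likelihood test with Benjamini-Hochberg adjustment over all 15578 genes tested, and a gene was called at an adjusted p of 0.05 or below. Over all genes tested, 22.3% were called, 11.6% as higher and 10.7% as lower. The stages did not overlap in normalised counts for 38 of the 45 members, against 46.4% of all genes tested. The median log2 fold change of the 45 was 0.39, against -0.01 over all genes tested. The glutathione-degrading enzyme gene *Chac1* was the only member that did not pass the filter. All the members together took 0.555% to 0.577% of the counts at 13.5 dpc and 0.672% to 0.685% at 15.5 dpc. The number of higher members was 15 with scaling by library size only, where 7.27% of all genes tested were higher. It was 12 to 14 without any one of the 13.5 dpc samples or without 15.5 dpc replicate 3, where 4.54% to 5.4% were. The members called in every one of 15 settings, samples left out included, were *Lars*, *Nars*, *Asns*, *Psat1*, *Psph*, *Shmt2*, *Cth*, *Cbs*, *Pycr1*, *Gatm*, *Slc38a3*, *Slc38a5* and *Slc1a5*. By role, the calls were 11 of 11 synthesis enzymes, 12 of 20 synthetases and 6 of 12 transporters, of which 5 were higher and *Slc38a5* was lower.

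**Figure D1:**
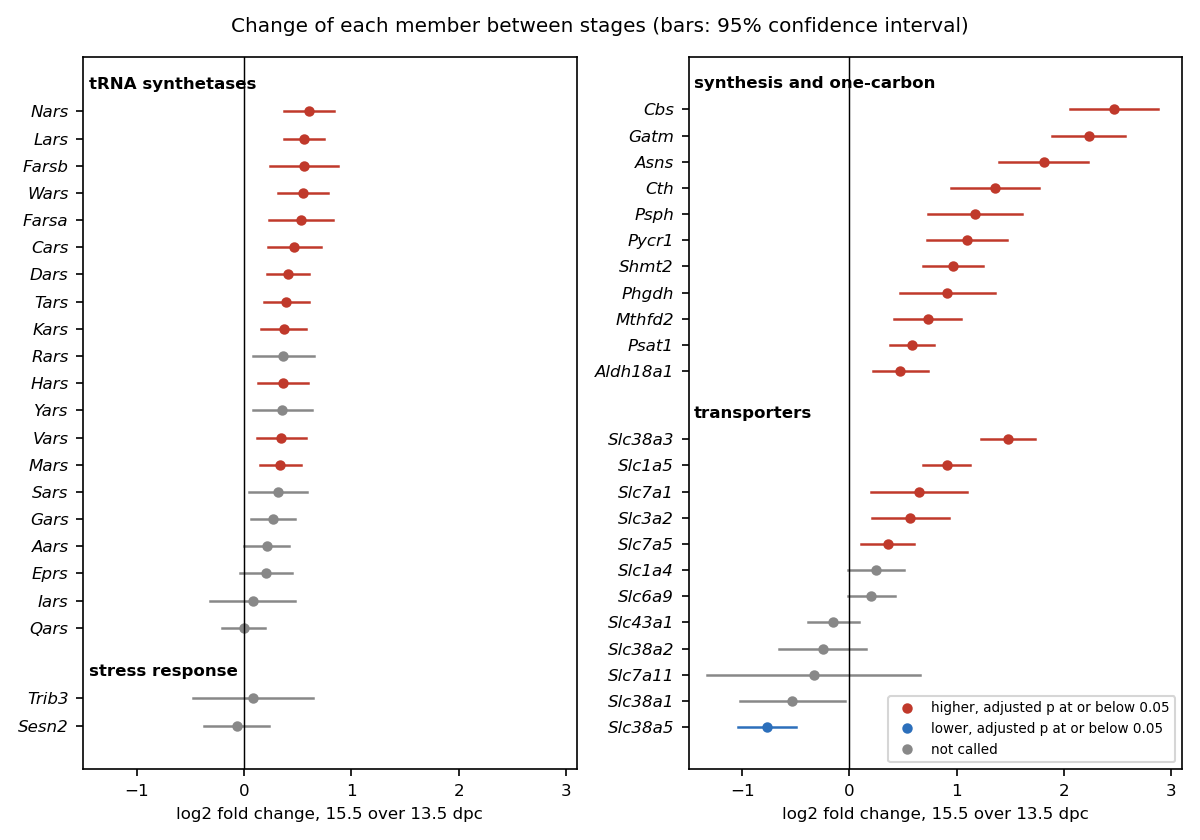
Log2 fold change of each member tested between 15.5 and 13.5 dpc (points, edgeR fit) with its 95% confidence interval (bars), grouped by role, with 3 samples per stage. The synthesis enzymes lie between 0.47 and 2.47, the synthetases between -0.01 and 0.61, and the transporters between -0.77 and 1.48.

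Enzymes of amino acid synthesis showed the largest differences. Their summed normalised counts were 10303 ± 450 (SD, n = 3) at 13.5 dpc and 23826 ± 3994 (SD, n = 3) at 15.5 dpc, a ratio of 2.31. All 11 rose, and the 3 samples of each stage did not overlap for any of them. The median log2 fold change was 1.10. The number called was 10 with library size only, 8 without 13.5 dpc replicate 1 or replicate 3, and 9 without 13.5 dpc replicate 2 or 15.5 dpc replicate 3. Over all genes tested, 7.27% were called higher with library size only and 4.54% to 5.4% without those samples. The calls lost were among *Phgdh*, *Mthfd2* and *Aldh18a1*, whose highest adjusted p over all settings were 0.073, 0.055 and 0.19. Normalised counts here are counts scaled to a common library size with TMM factors. *Phgdh* shares 47.8% of its 50-base transcript windows with other genes, *Gm7901*, *Gm9347* and *Gm8341* among them, so its count is uncertain.

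Cystathionine β-synthase, encoded by *Cbs* on chr17:31612623-31637199 (mm10, minus strand), joins homocysteine with serine in the first step from methionine to cysteine. *Cbs* stood at 824, 929 and 981 normalised counts in the 13.5 dpc samples and at 6211, 3985 and 4948 in the 15.5 dpc samples (replicates 1, 2 and 3, the order used throughout). The means differed 5.54-fold, with a log2 fold change of 2.47 (SE 0.18, adjusted p = 0.00047), the largest among the members. The next enzyme, cystathionine γ-lyase, releases cysteine from the product, and its gene *Cth* had counts of 259.7, 241 and 231 at 13.5 dpc and 758, 477 and 641 at 15.5 dpc. *Cth* rose by a log2 fold change of 1.36 (SE 0.17, adjusted p = 0.0026). For both enzymes, every 15.5 dpc sample lay above every 13.5 dpc sample, and replicate 1 was the highest and replicate 2 the lowest of the later stage.

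*Gatm* (chr2:122594467-122611303, minus strand) encodes the mitochondrial enzyme that joins arginine and glycine in the first step of creatine synthesis. At 13.5 dpc it had 173, 185 and 179.6 normalised counts, against 1001, 707 and 824 at 15.5 dpc. The means differed 4.70-fold, and the log2 fold change was 2.23 (SE 0.15, adjusted p = 0.00036). *Gamt*, whose product carries out the next step to creatine, also rose, by a log2 fold change of 1.64 (adjusted p = 0.0035). *Gamt* belongs to the list of other amino acid enzymes and was picked out after its value was seen.

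Asparagine synthetase makes asparagine from aspartate with glutamine as the nitrogen donor. Its gene *Asns* (chr6:7675169-7693254, minus strand) stood at 972, 1098 and 1081 normalised counts at 13.5 dpc. At 15.5 dpc it stood at 4673.5, 2904 and 3472, so that its lowest sample of the later stage was still above the highest of the earlier one. The means differed 3.51-fold, with a log2 fold change of 1.81 (SE 0.18, adjusted p = 0.0010).

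The serine branch of glycolysis is formed by Phgdh, Psat1 and Psph, in that order. *Phgdh* had 2273, 2288 and 2363 normalised counts at 13.5 dpc and 5682, 3290 and 4075 at 15.5 dpc. *Psat1* had 1260, 1395 and 1416 against 2052, 2068 and 1973. *Psph* had 325, 303 and 277 against 851, 514 and 672. The middle enzyme thus had the smallest difference, with a log2 fold change of 0.58 (SE 0.09, adjusted p = 0.0048). The values were 0.91 for *Phgdh* (SE 0.19, adjusted p = 0.015) and 1.17 for *Psph* (SE 0.19, adjusted p = 0.0056). *Psat1* was also nearly level among the 15.5 dpc samples, where the other genes of the branch were highest in replicate 1 and lowest in replicate 2. Differences between the enzymes were not tested.

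Mitochondrial serine hydroxymethyltransferase, the product of *Shmt2*, passes a carbon of serine to folate and leaves glycine. *Shmt2* had 1330, 1466 and 1473 normalised counts at 13.5 dpc and 3155, 2401 and 2779 at 15.5 dpc, with a log2 fold change of 0.96 (SE 0.12, adjusted p = 0.0023). The next mitochondrial folate enzyme is encoded by *Mthfd2*, which had 338, 344 and 318 against 652, 478 and 531 and a log2 fold change of 0.73 (SE 0.13, adjusted p = 0.0096). Its paralog *Mthfd2l* was lower at 15.5 dpc, with a log2 fold change of -0.77 (adjusted p = 0.0076). The cytosolic counterpart *Shmt1* (0.13, adjusted p = 0.36) and *Mthfd1l* (-0.22, adjusted p = 0.15), of the same mitochondrial folate route, were not called. *Mthfd1*, of the cytosolic folate route, was called higher (0.43, adjusted p = 0.016).

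Proline is made from glutamate by the synthase encoded by *Aldh18a1* and by pyrroline-5-carboxylate reductases such as that encoded by *Pycr1*. *Pycr1* had 248, 244 and 254 normalised counts at 13.5 dpc and 627, 415 and 560.4 at 15.5 dpc, with a log2 fold change of 1.10 (SE 0.16, adjusted p = 0.0040). *Aldh18a1* had 1803, 1923 and 2111 against 2412, 2913 and 2777, and its log2 fold change of 0.47 (SE 0.11, adjusted p = 0.022) was the smallest among the synthesis enzymes. It was also lowest in 15.5 dpc replicate 1, where *Pycr1* was highest.

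**Figure D2:**
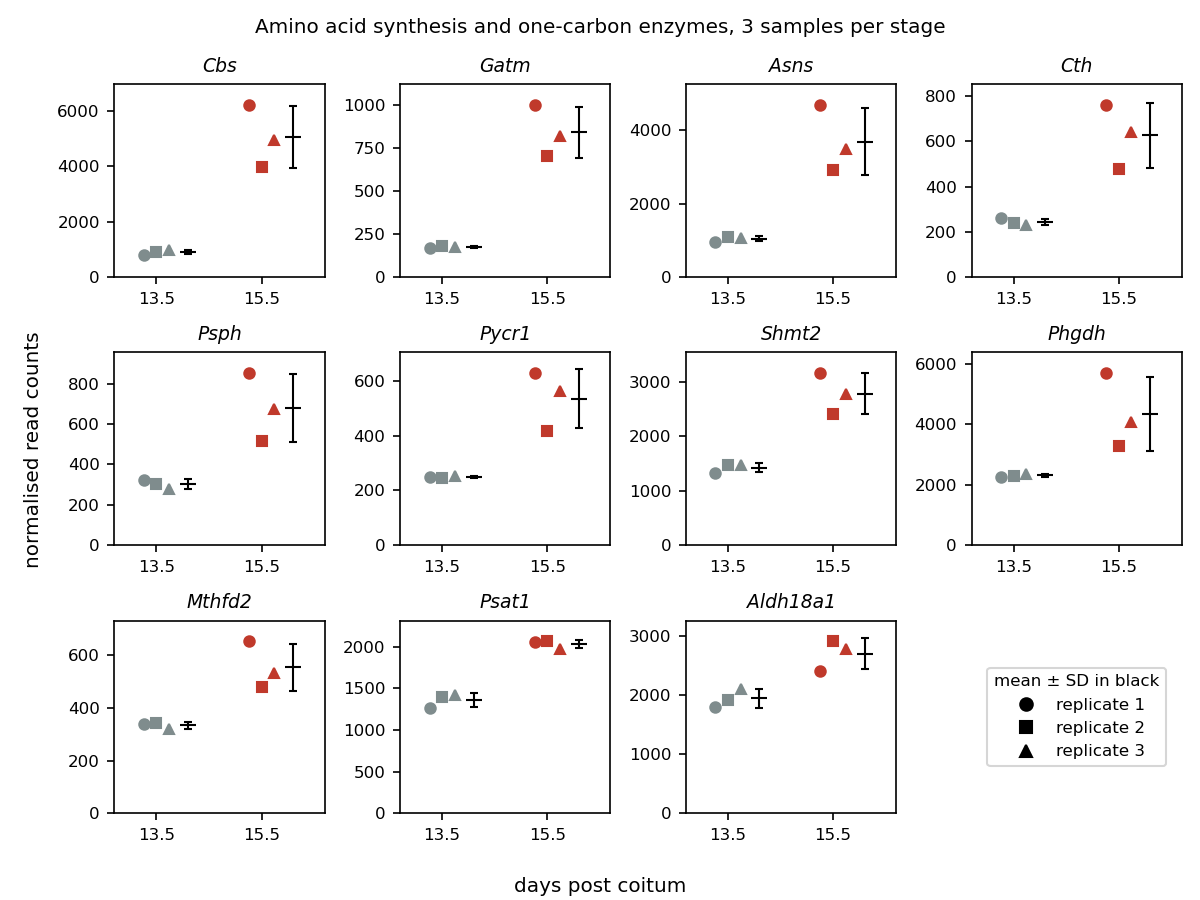
Normalised counts (linear axis from 0, one panel per gene) of the 11 synthesis and one-carbon enzymes in each of the 3 samples at 13.5 dpc (grey) and the 3 at 15.5 dpc (red), with mean ± SD in black. Each symbol is a sample, its shape gives the replicate, and for every gene the 15.5 dpc samples sit above the 13.5 dpc samples.

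The synthetases moved less and more evenly. Their summed normalised counts were 38407 ± 405 (SD, n = 3) at 13.5 dpc and 48971 ± 2986 (SD, n = 3) at 15.5 dpc, a ratio of 1.28. Of the 20, 12 were called higher, none lower, and 8 did not pass the test. The median log2 fold change was 0.36, 19 of the 20 values were positive, and the stages did not overlap for 18. The count of calls was sensitive to the samples used, as it was over all genes. It was 2 without 13.5 dpc replicate 1 or replicate 2 and 3 without 13.5 dpc replicate 3 or 15.5 dpc replicate 3, where 4.54% to 5.4% of all genes were called higher. It was 17 without 15.5 dpc replicate 2, where 24.7% of all genes were. The median of the synthetases stayed between 0.30 and 0.44 in these fits. *Lars* and *Nars* alone were called with every sample left out in turn. With scaling by library size only, 3 synthetases were called and the median was 0.14.

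*Nars*, for asparaginyl-tRNA synthetase, had the largest difference of the 20. At 13.5 dpc it had 2447, 2472 and 2381 normalised counts, against 4011, 3289 and 3807 at 15.5 dpc, with a log2 fold change of 0.61 (SE 0.10, adjusted p = 0.0068). *Asns*, which makes the amino acid that this enzyme uses, was among the members with the largest differences as well. *Lars*, for the leucyl enzyme, had 1473, 1483 and 1508 against 2189, 2236 and 2157, and was the steadiest within each stage among the called synthetases. Its log2 fold change was 0.56 (SE 0.08, adjusted p = 0.0036). The phenylalanyl enzyme is built of 2 kinds of subunit, encoded by *Farsa* and *Farsb*, and their values were close to each other. *Farsa* had 1200, 1237 and 1191 normalised counts at 13.5 dpc and 2055, 1499 and 1687 at 15.5 dpc (log2 fold change 0.53, SE 0.13, adjusted p = 0.024). *Farsb* had 1120, 1188 and 1048 against 1964, 1404 and 1573 (log2 fold change 0.56, SE 0.14, adjusted p = 0.027).

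*Wars*, for the tryptophanyl enzyme, had 1524, 1550.1 and 1622 normalised counts at 13.5 dpc and 2537, 2097 and 2258 at 15.5 dpc, with a log2 fold change of 0.55 (SE 0.10, adjusted p = 0.0092). *Cars*, for the cysteinyl enzyme, had 676, 622 and 646 against 978, 797 and 918, with a log2 fold change of 0.47 (SE 0.11, adjusted p = 0.021). *Dars*, for the aspartyl enzyme, had 1754, 1806 and 1730.4 against 2441, 2214 and 2358.5. Its log2 fold change of 0.41 (SE 0.08, adjusted p = 0.015) was within a standard error of that of *Cars*. *Tars*, for the threonyl enzyme, had 1426, 1465 and 1415 against 2043, 1767 and 1846 (log2 fold change 0.39, SE 0.09, adjusted p = 0.022). In these 4 genes the stages did not overlap, and replicate 2 was the lowest 15.5 dpc sample.

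The other called synthetases had log2 fold changes between 0.34 and 0.37. *Kars*, for the lysyl enzyme, had 2689.8, 2770.2 and 2779.8 normalised counts at 13.5 dpc and 3828, 3302 and 3504 at 15.5 dpc (adjusted p = 0.028). *Hars*, for the histidyl enzyme, had 1475, 1515 and 1404 against 2063, 1697.5 and 1884 (adjusted p = 0.041). These are both close to the threshold of the test, as is the next gene. *Vars*, for the valyl enzyme, had 3932, 3990.2 and 4384.5 against 5657.5, 5022 and 4965 (adjusted p = 0.043). *Mars*, for the methionyl enzyme, had 1347, 1336 and 1432 against 1674.5, 1778 and 1748 (adjusted p = 0.027), and, unlike the others, was lowest in 15.5 dpc replicate 1.

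The 8 synthetases that did not pass the test were *Aars*, *Eprs*, *Gars*, *Iars*, *Qars*, *Rars*, *Sars* and *Yars*. For 6 of them the stages still did not overlap, with log2 fold changes of 0.20 to 0.36 and adjusted p of 0.065 to 0.19. With library size only, the signs of *Aars* and *Eprs* turned. *Yars*, for the tyrosyl enzyme, was one of the 6 without overlap. It had 1157, 1163.5 and 1156 normalised counts at 13.5 dpc against 1728.5, 1336.5 and 1388 at 15.5 dpc. At the low end, *Qars*, for the glutaminyl enzyme, had 2403, 2175 and 2299 against 2347, 2202 and 2303. Its log2 fold change was -0.01, with a 95% confidence interval of -0.21 to 0.20 and adjusted p = 0.97, and its sign turned with the scaling. *Iars*, for the isoleucyl enzyme, had 1561, 1650.5 and 1855 against 1405, 2215 and 1734, and its 15.5 dpc samples spanned the whole range of the earlier stage (log2 fold change 0.08, adjusted p = 0.74). Its sign turned with library size only and without 15.5 dpc replicate 2. In *Aars*, 14.3% of the exon length is shared with *Exosc6* on the same strand, so its count is uncertain.

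Set per kilobase of annotated exon, the levels of the synthetases spanned nearly an order of magnitude. At 15.5 dpc the highest were *Kars* at 1576 ± 118, *Nars* at 1406 ± 141 and *Gars* at 1319 ± 81 normalised counts per kilobase (SD, n = 3). The lowest were *Yars* at 249.8 ± 35.9 and *Cars* at 194 ± 20 (SD, n = 3). *Kars* had also been the highest at 13.5 dpc, at 1221 ± 22, and *Cars* the lowest, at 139.7 ± 5.9 (SD, n = 3). The spreads of *Kars* and *Nars* overlapped, as did those of *Nars* and *Gars*, so *Nars* was not resolved from either. The exon length sums every annotated exon of a gene, which lowers the value of genes with long rare exons.

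In animals, several synthetases are held in a multisynthetase complex with the scaffold proteins encoded by *Aimp1*, *Aimp2* and *Eef1e1*. Of the members, *Dars*, *Eprs*, *Iars*, *Kars*, *Lars*, *Mars*, *Qars* and *Rars* encode enzymes of this complex. This division was made after the values were seen. Of those 8, 4 were called higher, with a median log2 fold change of 0.35, and of the 12 outside it 8 were, with a median of 0.38. The scaffold genes had log2 fold changes of 0.45 (*Aimp1*, adjusted p = 0.18), 0.56 (*Aimp2*, adjusted p = 0.059) and 0.32 (*Eef1e1*, adjusted p = 0.26), and 0 of 3 were called. At an unadjusted p under 0.05, 1 of the 3 passed.

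**Figure D3:**
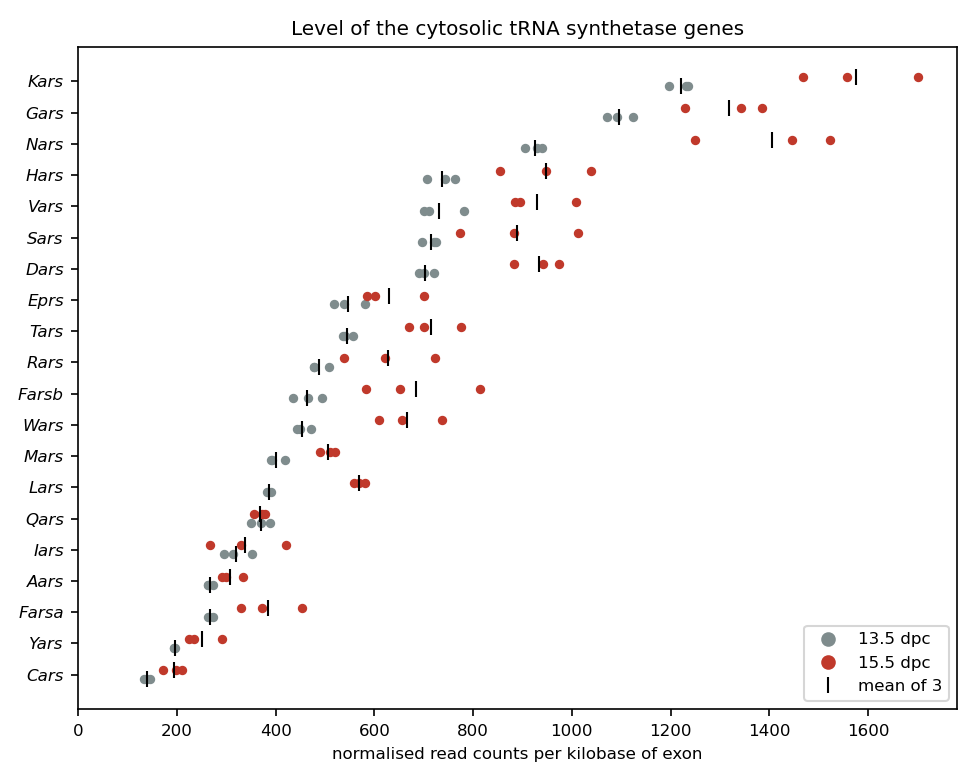
Levels of the 20 cytosolic synthetase genes in normalised counts per kilobase of exon at 13.5 dpc (grey) and 15.5 dpc (red), with a point for each of the 3 samples per stage and a tick at their mean. *Kars* is the highest and *Cars* the lowest at both stages.

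The mitochondrial synthetases, which charge the tRNAs of the mitochondrial ribosome, were tested beside the cytosolic ones. Of 17, 2 were called higher, 1 lower and 14 not, with a median log2 fold change of 0.23. *Lars2* (0.82, adjusted p = 0.043) and *Mars2* (0.58, adjusted p = 0.032) were higher, and *Pars2* (-0.53, adjusted p = 0.023) was lower. *Lars2* held most of the summed counts of this list, with 11242 to 16622 at 13.5 dpc and 18445 to 32532 at 15.5 dpc. Per kilobase of exon it stood at 3761 ± 754 and 6660 ± 1822 (SD, n = 3). That lay above *Kars*, the highest cytosolic synthetase, at 1221 and 1576. The source of so many reads was not tested, so the count of *Lars2* is uncertain.

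The transporters were the most mixed of the large groups. Of 12, 5 were higher, 1 was lower and 6 did not pass the test, with a median log2 fold change of 0.23. Their summed normalised counts were 17403 ± 505 (SD, n = 3) at 13.5 dpc and 19609 ± 555 (SD, n = 3) at 15.5 dpc, a ratio of 1.13. The number of higher calls was 2 without any one of the 13.5 dpc samples or without 15.5 dpc replicate 3. In those fits 4.54% to 5.4% of all genes tested were called higher. *Slc38a3*, *Slc1a5* and *Slc38a5* were called with every sample left out in turn.

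The sodium-coupled glutamine carriers of the *Slc38* family went apart. *Slc38a3* (chr9:107650639-107668968, minus strand), which encodes the system N transporter SNAT3, had 1307, 1494 and 1551 normalised counts at 13.5 dpc and 4358, 3884 and 3878 at 15.5 dpc. The means differed 2.79-fold, with a log2 fold change of 1.48 (SE 0.11, adjusted p = 0.00047). *Slc38a5* (chrX:8271133-8280179, plus strand), which encodes the other system N transporter of the list, SNAT5, had 4787, 4894 and 4609 against 3244, 2511.5 and 2643. It fell to 0.588 of its earlier mean, with a log2 fold change of -0.77 (SE 0.12, adjusted p = 0.0048). Per kilobase of exon, *Slc38a5* went from 2126 ± 64 to 1249 ± 174 and *Slc38a3* from 411 ± 36 to 1146 ± 78 (SD, n = 3). At 15.5 dpc the levels of the pair thus lay within the spread of *Slc38a5*, whereas at 13.5 dpc *Slc38a5* was the higher one.

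The system A carriers of the family did not pass the test. *Slc38a1* had 1783, 1785 and 1893 normalised counts at 13.5 dpc and 893, 1683 and 1197.5 at 15.5 dpc (log2 fold change -0.53, SE 0.21, adjusted p = 0.11). Every later sample was below every earlier one, but the later samples differed widely. *Slc38a2* had 2837, 2848 and 2987 against 1807, 3001 and 2483 (log2 fold change -0.25, adjusted p = 0.32), with overlap between the stages. *Slc38a4*, the remaining system A gene and not a member, was called lower, with a log2 fold change of -0.87 (adjusted p = 0.013).

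*Slc1a5* encodes ASCT2, an exchanger of glutamine and other small neutral amino acids. It had 781, 797 and 825 normalised counts at 13.5 dpc and 1626, 1415 and 1461 at 15.5 dpc. The means differed 1.87-fold, with a log2 fold change of 0.90 (SE 0.09, adjusted p = 0.0012), and no sample of one stage came near the other. Its relative *Slc1a4* had a log2 fold change of 0.25 (adjusted p = 0.15).

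The light chain LAT1, encoded by *Slc7a5*, imports leucine and other large neutral amino acids when joined to the heavy chain CD98, encoded by *Slc3a2*. *Slc7a5* had 2226, 2270 and 2587 normalised counts at 13.5 dpc and 2742, 3207 and 3125 at 15.5 dpc, with a log2 fold change of 0.36 (SE 0.11). Its adjusted p of 0.0497 lay just inside the threshold. *Slc3a2* had 1584, 1617 and 1579.5 against 2928, 1933 and 2225, with a log2 fold change of 0.57 (SE 0.15, adjusted p = 0.037). The pair differed in which 15.5 dpc sample was highest, replicate 2 for *Slc7a5* and replicate 1 for *Slc3a2*. Per kilobase of exon at 15.5 dpc, *Slc7a5* stood at 861 ± 71 and *Slc3a2* at 799 ± 173 (SD, n = 3), which is within the spread.

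*Slc7a1* encodes CAT1, an importer of arginine and lysine. It had 589, 698 and 843 normalised counts at 13.5 dpc and 956, 1405 and 982 at 15.5 dpc, with a log2 fold change of 0.65 (SE 0.19, adjusted p = 0.048). The cystine importer gene *Slc7a11* was close to the limit of detection, with 13, 16 and 21 raw counts at 13.5 dpc and 3, 10 and 14 at 15.5 dpc (log2 fold change -0.33, SE 0.42, adjusted p = 0.58), and a difference was not detectable at this depth. *Slc43a1* and the glycine transporter gene *Slc6a9* had log2 fold changes of -0.15 and 0.20 (adjusted p = 0.30 and 0.15).

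**Figure D4:**
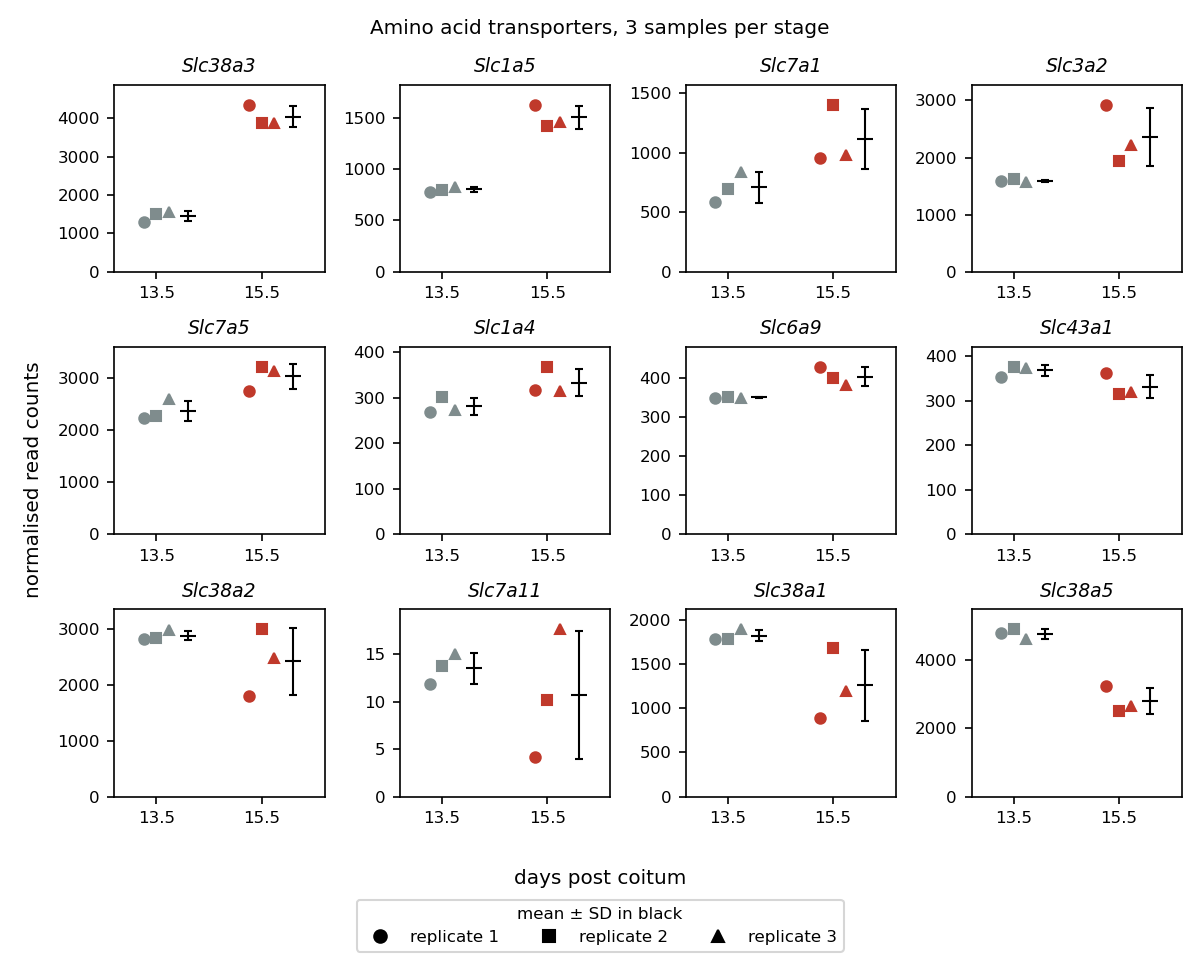
Normalised counts (linear axis from 0, one panel per gene) of the 12 transporter genes in each sample, 3 at 13.5 dpc (grey) and 3 at 15.5 dpc (red), with mean ± SD in black. *Slc38a3*, *Slc1a5*, *Slc7a1*, *Slc3a2* and *Slc7a5* sit higher at 15.5 dpc and *Slc38a5* lower, whereas *Slc38a2*, *Slc7a11* and *Slc43a1* overlap between the stages.

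None of the 3 genes of the group that responds to amino acid shortage was called, and *Trib3* and *Chac1* were close to the limit of detection. *Trib3*, a pseudokinase gene induced by Atf4, had 28, 36 and 39 raw counts at 13.5 dpc and 28, 28 and 18 at 15.5 dpc (log2 fold change 0.08, 95% confidence interval -0.48 to 0.64, adjusted p = 0.82). *Chac1* had 7, 11 and 11 against 8, 5 and 16 raw counts and was too low to be tested. *Sesn2*, whose product reports leucine to mTORC1, had 444, 450 and 495 normalised counts against 375, 502 and 444.5 (log2 fold change -0.07, 95% confidence interval -0.37 to 0.23, adjusted p = 0.71). The stages overlapped in all 3, and 0 of the 2 tested were called or had an unadjusted p under 0.05.

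Of 21 genes of the eIF2α kinases and the Atf4 pathway, 6 were called higher, 1 lower and 14 not, with a median log2 fold change of 0.21. The highest of those called were *Nupr1* (2.56, adjusted p = 0.0012), *Herpud1* (2.08, adjusted p = 0.00057) and *Stc2* (1.39, adjusted p = 0.00083). *Nupr1* encodes a stress-induced transcriptional regulator, *Herpud1* a protein of endoplasmic reticulum quality control and *Stc2* a secreted stanniocalcin. *Impact*, an inhibitor of Gcn2 activation, was lower (-0.56, adjusted p = 0.038). Of the eIF2α kinase genes, *Eif2ak3* was called higher (1.05, adjusted p = 0.0016). *Eif2ak4*, for Gcn2 itself (-0.33, adjusted p = 0.24), *Eif2ak2* (-0.37, adjusted p = 0.23) and *Eif2ak1* (-0.012, adjusted p = 0.93) were not called. The part of any kinase in these differences was not tested. *Atf4* itself, picked out after its value was seen, had 2199.6, 2351 and 2225 normalised counts at 13.5 dpc and 4388, 2758 and 3386 at 15.5 dpc (log2 fold change 0.64, SE 0.16, adjusted p = 0.033). *Atf4* is regulated mainly at translation, which RNA counts do not measure.

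Sensing of amino acids by mTORC1 was followed in 19 genes, of which 2 were higher, 3 lower and 14 not called, with a median log2 fold change of -0.24. *Lamtor2*, of the lysosomal Ragulator, rose (1.02, adjusted p = 0.042). The arginine sensor gene *Castor1* was also called (0.90, adjusted p = 0.044), but was close to the limit of detection, with 10, 17 and 21 raw counts at 13.5 dpc and 19, 22 and 20 at 15.5 dpc. The Rag GTPase genes *Rragd* (-1.11, adjusted p = 0.0081) and *Rragb* (-0.54, adjusted p = 0.022) fell. *Sesn1*, the relative of *Sesn2*, also fell (-0.41, adjusted p = 0.016).

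Among 31 other enzymes of amino acid metabolism tested, 13 were higher, 4 lower and 14 not called, with a median log2 fold change of 0.30. *Ass1*, for argininosuccinate synthetase, which makes the precursor of arginine from citrulline and aspartate, had 61, 73.7 and 95.5 normalised counts at 13.5 dpc and 2072, 1000.1 and 1401.5 at 15.5 dpc. Its log2 fold change was 4.27 (SE 0.31, adjusted p = 0.00047). *Gnmt*, for glycine N-methyltransferase, rose by 4.02 (adjusted p = 0.0023) and the folate enzyme gene *Aldh1l1* by 2.68 (adjusted p = 0.00072), both on the log2 scale. The lower ones included *Mthfd2l*, given above, and *Glul* for glutamine synthetase (-0.64, adjusted p = 0.0033). *Mat1a*, which makes the methyl donor S-adenosylmethionine, was picked out after its value was seen and had a log2 fold change of 1.59 (adjusted p = 0.00047).

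Among 24 other amino acid transporters tested, 4 were higher, 4 lower and 16 not called, with a median log2 fold change of -0.05. *Slc7a4* (1.47, adjusted p = 0.0019), *Slc7a7* (0.73, adjusted p = 0.0073) and *Slc7a8* (0.71, adjusted p = 0.0036) were the highest of those called. *Slc38a4*, given above, the creatine transporter gene *Slc6a8* (-0.64, adjusted p = 0.0041) and *Slc43a2* (-0.48, adjusted p = 0.020) were the lowest of those called. The gene for creatine import was thus lower, and those for both steps of creatine synthesis were higher.

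**Figure D5:**
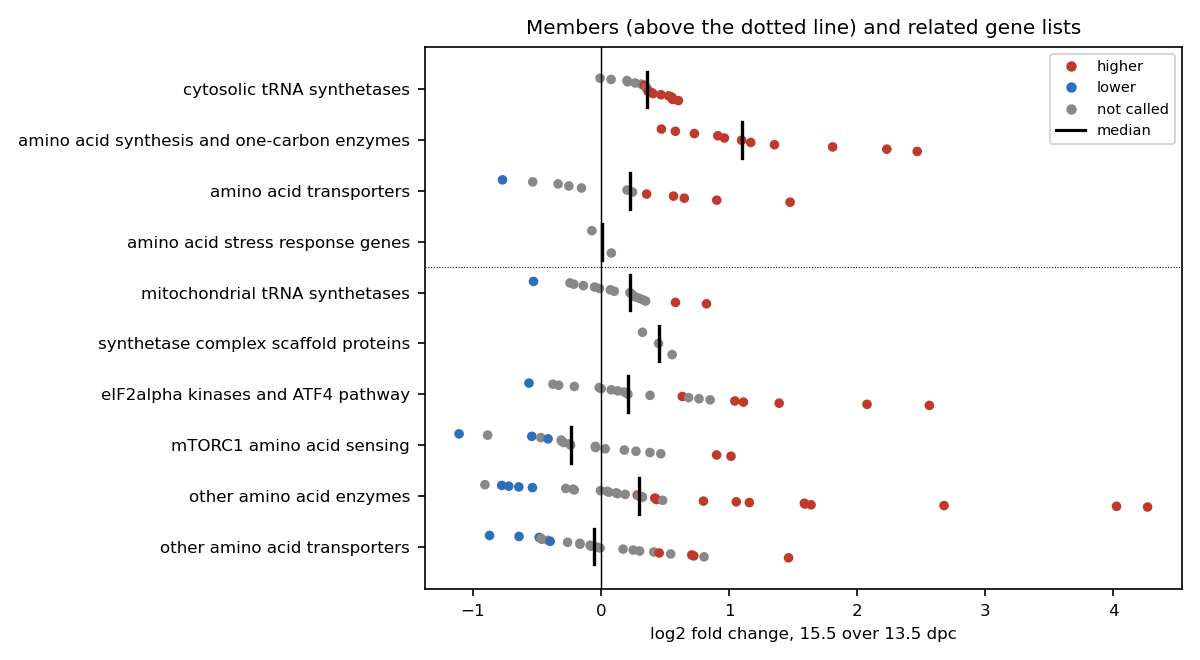
Log2 fold change between 15.5 and 13.5 dpc of every gene tested in the 4 groups of members and in the pathway lists (points), coloured by call, with the median of each list as a vertical bar. The synthesis enzymes have a median of 1.10, and the other lists have medians between -0.24 and 0.45.

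Promoters were searched for the composite element that Atf4 binds with C/EBP proteins, with the letters TGATGNAA, N being any base, on both strands. No other motif was searched. The windows ran from 250 bases before to 50 after each RefSeq start (GRCm38.p6). Of the 33 members with an entry, 11 held the motif (33.3%), against 4.51% of 27025 genes with an entry. The 11 were *Aars*, *Gars*, *Iars*, *Tars*, *Yars*, *Asns*, *Pycr1*, *Slc1a4*, *Slc7a11*, *Chac1* and *Trib3*. Counting only motifs that lay wholly before the start, they were 7 (21.2%), against 3.91%. The lines that follow give 30 bases around the motif, 5′ to 3′ on the strand of the gene, with the motif or its reverse complement in capitals. They show the 3 members with the motif that rose and then 3 that were not called or not tested.
*Asns*, chr6:7693214-7693243, minus strand: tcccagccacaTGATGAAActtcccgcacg
*Pycr1*, chr11:120643833-120643862, minus strand: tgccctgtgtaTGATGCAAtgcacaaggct
*Tars*, chr15:11399655-11399684, minus strand: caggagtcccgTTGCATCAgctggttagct
*Slc7a11* (first site), chr3:50443661-50443690, minus strand: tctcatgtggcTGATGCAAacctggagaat
*Slc7a11* (second site), chr3:50443642-50443671, minus strand: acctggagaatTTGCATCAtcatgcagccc
*Chac1*, chr2:119351038-119351067, plus strand: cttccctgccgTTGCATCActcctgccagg
*Trib3*, chr2:152344028-152344057, minus strand: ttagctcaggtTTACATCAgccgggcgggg

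The motif in *Asns* began 23 bases before the start, that in *Pycr1* 103 bases before it and that in *Tars* 15 bases before it. Of the 10 members with the motif that were tested, 3 rose, and their median log2 fold change was 0.26. Of the 22 with an entry and without the motif, 14 rose and 1 fell, and the median was 0.50. The members with the letters thus had the smaller share of calls and the smaller median, and this difference was not tested. Over all genes tested, 11.6% were called higher. The sets also differ in role, as *Asns* and *Pycr1* were the only synthesis enzymes with the letters, and that group had the largest median (1.10). Among those with the letters, *Slc7a11* and *Trib3* were close to the limit of detection. Absence of the letters says nothing of other sites of the same factor.

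The makeup of the samples moved with these results. Of the 9 acinar markers, 8 rose, with a median log2 fold change of 2.07, and their summed normalised counts went from 46188 to 53933 at 13.5 dpc to 146840 to 269340 at 15.5 dpc. Of the 5 epithelial markers 3 rose, with sums of 20359 to 21520 and 28543 to 36136. Of the 8 endocrine markers 3 rose (21677 to 23616 and 24803 to 43231), and of the 5 duct markers tested 2 rose and 1 fell (13959 to 14754 and 12367 to 15200). Mesenchymal markers gave 2 lower of 7, with sums of 93943 to 105640 at 13.5 dpc and 68843 to 100940 at 15.5 dpc. Proliferation genes stayed close, with 1 of 8 called and sums of 24278 to 24473 and 24614 to 27542. The part of cell composition in the differences of the members was not tested.

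The 15.5 dpc samples differed among themselves, with TMM factors of 0.847, 0.991 and 0.953. Replicate 1 was the highest, replicate 3 the middle and replicate 2 the lowest for 20 of the 28 members called higher. This order held for 67% of all genes called higher and for 35.8% of all genes tested. It was found for 8 of the 9 acinar markers and 3 of the 5 epithelial markers, for 9 of the 11 synthesis enzymes, for 15 of the 20 synthetases and for 4 of the 12 transporters. *Psat1*, *Aldh18a1*, *Lars*, *Mars*, *Slc7a5* and *Slc7a1* were the called members with replicate 2 highest. Of 5 liver markers none rose and 2 fell, with sums of 1127.7 to 1714.8 at 13.5 dpc and 741.7 to 1088 at 15.5 dpc, and the part of liver RNA in the results was not tested. Red cell markers went from 11610 to 14374 down to 1097 to 1514, with 3 of 6 lower and 1 higher. For endothelium 1 of 5 was higher, and for immune and neural cells 2 of 5 were lower in each list.

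With the cut-offs on size of the study's own analysis (a fold above 1.6 or below 0.6, a mean above 100 normalised counts at one stage or the other, and an adjusted p of at most 0.1), 11 members were higher and 1 was lower, against 6.3% and 3.58% of all genes tested. The study's limit to mRNAs was not applied here. No synthetase reached that fold, since the largest ratio of means, that of *Nars*, was 1.52. The labels do not say whether the samples of a stage came from separate litters. The p-values therefore set each difference between stages against the spread within the stages of these 6 samples only.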

How the data were processed

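Poly(A) RNA of wt pancreata was sequenced with strand-specific libraries. Reads were mapped by the authors with GSNAP (mm10), and unique alignments were counted on Ensembl genes with featureCounts 1.4.6 (version per the submitters' processing notes), and the deposited values are these raw counts per gene, without normalisation, beside the exon length. Genes nested in exons of another gene reached 10 counts in 0 of 296 cases where both shared a strand and in 28 of 144 cases where they did not, so counting was taken to respect the strand. Of 37224 identifiers, 35449 matched a symbol, among them all 46 members. Samples were grouped by the stage in their titles, and no per-sample column was left unused.

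The tests used edgeR 4.0.16 and limma 3.58.1 in R 4.3.3. Genes were filtered with filterByExpr, scaled with TMM factors and tested with the two-sided quasi-likelihood test over the 6 samples without covariates, with Benjamini-Hochberg adjustment over all 15578 genes tested. Each standard error was taken as the absolute log2 fold change over the square root of its F. For display, counts were brought to one library size, the geometric mean of the 6 effective sizes. With total counts of 10546028 to 16389237 per sample, genes with few reads have wide intervals. On simulated counts with 200 genes changed by a fold of 2, 195 were recovered among 15553 tested, with 12 false calls. Promoter sequences are from RefSeq (GRCm38.p6) by symbol, and 13 members had no entry. Sharing of 50-base windows between transcripts marked uncertain counts. Figures were drawn with matplotlib 3.10.9.

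The members and lists were chosen with earlier results of these data known. Members were described with all their values if called or at either end of their group. For the pathway lists at most the 3 highest and 3 lowest called genes were named. Exceptions were those stated and the genes of the scaffold proteins, the folate routes and the eIF2α kinases. Some results are not reported here. Alternatives were other scalings, DESeq2 1.42.0, other filters, genes above 1% of the counts taken out, removal of a lowess trend with gene length (span 0.5), the replicate number as a block, the study's thresholds and each sample left out in turn.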

Additional observations from a re-analysis of the deposited data

How the results depend on the processing

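With the paper's thresholds 11 members were higher, and with scaling by library size only 15 were, which also shifted the median of all genes to -0.22. The count ranged from 12 to 33 with each sample left out in turn, where 4.54% to 24.7% of all genes tested were higher. It was 12 without 13.5 dpc replicate 1, 13 without 13.5 dpc replicate 2 or replicate 3, and 14 without 15.5 dpc replicate 3. Over all genes tested, 3467 were called, and 1235 to 7620 with samples left out. With the length trend removed, 34 members were higher and 5104 genes were called over the whole table, where 18.1% were higher. The remaining settings with all samples gave 20 to 31 higher members, where 7.34% to 14.2% of all genes tested were higher. Lower members were 2 with library size only and 2 with the length trend removed, and 1 to 3 with samples left out (3 without 15.5 dpc replicate 2). With library size only the median log2 fold changes were 0.14 for synthetases, 0.87 for synthesis enzymes and 0.015 for transporters, and the last was 0.32 with the length trend removed. With samples left out these medians ranged from 0.30 to 0.44, 0.97 to 1.27 and 0.20 to 0.27.

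Signs turned for 8 members, none of them called. With library size only *Aars* was -0.0087, *Eprs* -0.0037, *Iars* -0.12, *Slc6a9* -0.010 and *Trib3* -0.13. *Qars* was 0.011 with RLE scaling, 0.0033 with DESeq2 and 0.18 with the length trend removed, where *Slc43a1* was 0.0055 and *Trib3* -0.030. With samples left out *Iars* ranged from -0.092 to 0.23, *Qars* from -0.044 to 0.034, *Trib3* from -0.12 to 0.24 and *Sesn2* from -0.16 to 0.034. The causes were not tested.

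With the replicate number as a block, 20 members were higher and 1 lower, and synthetase calls went from 12 to 6. In that setting 9.15% of all genes tested were called higher, against 11.6% without the block. Same-numbered samples correlated at 0.22, -0.218 and 0.0378 in their deviations from the stage means. Samples of unlike number correlated at -0.375 to 0.388, so no pairing by number was seen. Whether the numbers stand for a shared litter or batch could not be tested with 3 samples per stage. In all, 674 values of 45 members were compared with alternatives, of which 550 kept their direction and side of the threshold. Depth limits *Chac1*, *Slc7a11* and *Trib3*.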
